A study of Mus musculus with 2 samples.

Results

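Granule-high neutrophils are the neutrophils of inflamed mid-colon that hold many transcripts of secondary granule proteins. They were chosen among the barcodes of single-cell RNA libraries by their raw UMI counts, where a UMI is a counted molecule. A member had at least 200 genes detected, under 20% of its UMIs from mitochondrial genes, at least 5% of them from S100a8 and S100a9, at most 3 Epcam UMIs, no Cd3e UMI, and at least 20 UMIs of Ngp, Ltf and Camp together. The rule found 748 members among 14848 barcodes that passed the first pair of limits, 233 of 5721 in library 1 and 515 of 9127 in library 2. Barcodes that met the rest of the rule with under 20 granule-gene UMIs numbered 195 and 416 and are called granule-low here. All cells came from 1 group, 7-week-old mice kept free of specific pathogens and given 3% dextran sulfate sodium (DSS), which injures the colon epithelium, for 6 days. The 2 libraries are numbered repeats of that group, and the labels name neither a strain nor separate animals. The p-values rest on the spread of these libraries alone, and that spread may be technical. Every cell carried the DSS treatment and samples without it were not analysed here, so no value is an effect of DSS.

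Neutrophils fill their granules in sequence while they mature in the bone marrow. Primary granule genes such as Mpo and Elane are transcribed in promyelocytes, secondary (specific) granule genes such as Ltf, Camp and Ngp in myelocytes and metamyelocytes, and gelatinase granule genes in band cells. C/EBP family transcription factors, C/EBP epsilon above all, drive the secondary granule genes. In circulating mature cells these transcripts have mostly decayed, and their presence in tissue is often read as a sign of recent release from the marrow.

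Ngp codes for neutrophilic granule protein, Ltf for the iron-binding protein lactoferrin and Camp for the precursor of the antimicrobial peptide cathelicidin. All lie on chromosome 9 (GRCm38), Camp at 109847379-109849617, Ngp at 110419747-110423012 and Ltf at 111019271-111042767. The stretch of 1195389 bases that they span held 9 other genes that could be tested, and none of the 9 passed the test between granule-high and granule-low neutrophils described below (edgeR and DESeq2, with 3 at an unadjusted p under 0.05, all higher). The 250 bases before their RefSeq start (GRCm38.p6) are shown with those of Cd177, a neutrophil surface gene outside the rule that goes with them in the results. The RefSeq starts of Ngp, Camp and Ltf lie inside the GENCODE spans given above. Part of each of their windows is therefore inside the gene as placed there. Each sequence runs 5′ to 3′ on the strand of its gene, and capitals mark the C/EBP-type motif TTNNGNAA on either strand.
Ngp, chr9:110419558-110419807, plus strand: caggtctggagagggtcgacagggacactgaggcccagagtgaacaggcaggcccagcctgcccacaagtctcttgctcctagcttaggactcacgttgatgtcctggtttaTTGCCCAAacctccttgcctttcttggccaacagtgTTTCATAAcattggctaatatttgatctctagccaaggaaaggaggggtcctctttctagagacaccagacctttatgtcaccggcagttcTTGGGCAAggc
Camp, chr9:109849457-109849706, minus strand: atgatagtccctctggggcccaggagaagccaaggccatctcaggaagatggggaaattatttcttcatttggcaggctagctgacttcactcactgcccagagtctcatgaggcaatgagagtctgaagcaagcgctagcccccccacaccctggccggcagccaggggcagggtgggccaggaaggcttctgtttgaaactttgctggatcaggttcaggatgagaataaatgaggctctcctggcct
Ltf, chr9:111019042-111019291, plus strand: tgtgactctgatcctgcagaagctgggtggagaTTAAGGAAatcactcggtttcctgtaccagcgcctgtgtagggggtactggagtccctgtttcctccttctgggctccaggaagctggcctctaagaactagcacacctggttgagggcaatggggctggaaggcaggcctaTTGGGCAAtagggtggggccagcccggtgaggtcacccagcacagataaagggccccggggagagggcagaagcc
Cd177, chr7:24760312-24760561, minus strand: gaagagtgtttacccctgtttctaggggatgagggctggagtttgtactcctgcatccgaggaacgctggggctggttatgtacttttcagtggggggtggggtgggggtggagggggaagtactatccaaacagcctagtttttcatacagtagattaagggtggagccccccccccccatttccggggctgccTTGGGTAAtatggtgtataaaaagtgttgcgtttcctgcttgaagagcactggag
The Ngp window held 3 matches, the Ltf window 2, the Cd177 window 1 and the Camp window 0. A match was found in 36.8% of all 32851 promoter windows of this length, so a match alone does not set a promoter apart.

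The values that chose the members are given as a description. Ngp made up 81.4% of the members' granule-gene UMIs in library 1 and 82.9% in library 2, and every member held it. Ltf was at 0 in 16.7% and 22.3% of members and Camp in 21.03% (49 of 233) and 20% (103 of 515). The median member held 109 granule-gene UMIs in library 1 and 90 in library 2, with a highest value of 962 and 816. Levels below are CPM, the summed counts of a class in a library scaled to a common total, with TMM factors unless said otherwise, and are given for library 1 first. Ngp reached 23070.0 and 20859 CPM in the members and 548 and 932 CPM in granule-low neutrophils. Ltf stood at 2862 and 2222 against 16.1 and 30.99 CPM and Camp at 2404 and 2092 against 18.4 and 43.7 CPM. S100a8, which with S100a9 encodes the cytosolic protein calprotectin, was at 264561 and 211124 CPM in the members and 125344 and 109694 CPM in granule-low neutrophils.

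Granule-gene counts spread over a wide range. Counted in ranges that widen with the count, the share of gated neutrophils showed a dip in both libraries. The dip lay at 10 to 19 UMIs in library 1 (4.21% of gated neutrophils) and at 5 to 9 UMIs in library 2 (6.66%). Wider ranges can hold more barcodes (10 to 19 UMIs against 20 to 39), so the dip and its place both depend on the ranges. Separate populations are not shown by it. Just inside the limit, 10 and 26 members held 20 to 24 granule-gene UMIs, and just outside it 7 and 42 granule-low barcodes held 15 to 19. No granule-gene UMI was found in 102 and 168 granule-low barcodes. A further 18 and 10 barcodes missed the rule by their Epcam UMIs alone, and 21 and 36 by a Cd3e UMI alone. Members made up 54.4% of gated neutrophils in library 1 (exact binomial 95% interval 49.6 to 59.2) and 55.3% in library 2 (52.1 to 58.5), a mean of 54.9% ± 0.62 (SD, n = 2). They were 4.07% (3.58 to 4.62) and 5.64% (5.18 to 6.14) of the barcodes past the filters. These intervals cover counting error only. The rule counts raw UMIs, and members were deeper, with medians of 8925 and 7052 UMIs against 4967 and 4395 in granule-low neutrophils. When every barcode was thinned to 1000 UMIs and a granule-gene share of 0.5% was used instead, the mean share was 50.8%.

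**Figure D1:**
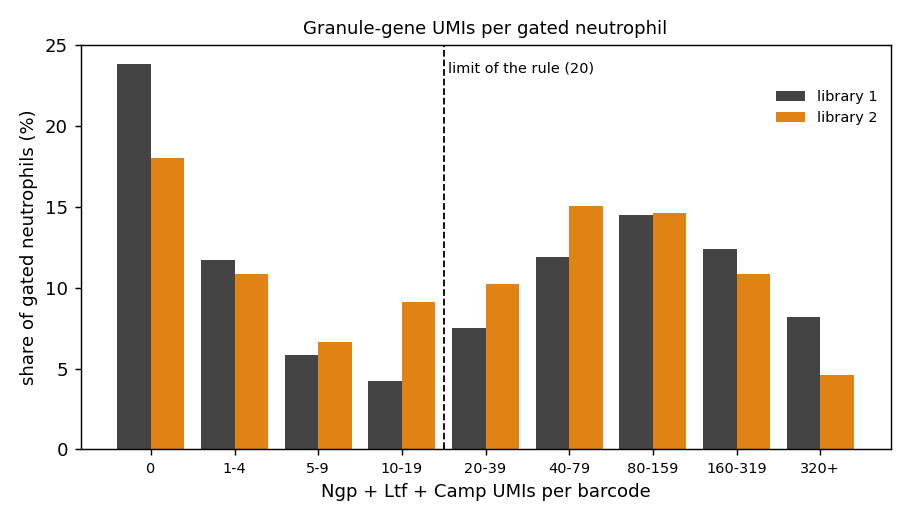
Share of gated neutrophils (%, vertical axis) by Ngp, Ltf and Camp UMIs per barcode (horizontal axis), in library 1 (grey) and library 2 (orange), with the limit of the rule as a dashed line. The ranges widen with the count. In library 1, 4.21% of gated neutrophils held 10 to 19 UMIs and 14.5% held 80 to 159, and in library 2 these shares were 9.13% and 14.6%.

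The label "immature" was set against markers that the rule did not use. Retnlg, a neutrophil-secreted resistin-like protein, stood at 33347 and 31899.9 CPM in the members and Cxcr2, the receptor for neutrophil-attracting chemokines, at 1163 and 1326 CPM, so both classes carried neutrophil identity genes (granule-low Cxcr2 1447 and 1367 CPM). Markers of the promyelocyte stage were absent or scarce in the members. Mpo, Elane and Ms4a3 had no UMI in any member and Ctsg had 1, while Prtn3, the gene of proteinase 3, stood at 28.4 and 12.4 against 61.1 and 44.3 CPM in the members and granule-low neutrophils, and Prss57, a serine protease gene of primary granules, had 7 and 12 UMIs against 0 and 5. The log2 difference of Prtn3, granule-high minus granule-low, was -1.46 ± 0.49 (adjusted p = 0.075), and 0.52 ± 0.64 (adjusted p = 0.65) without the monocyte-marked barcodes described below. The 5 genes of the dividing-cell list summed to 22.3 and 41.8 CPM (not TMM-scaled) in the members, 30.5 and 46.2 in granule-low neutrophils and 103 and 144 in mononuclear phagocytes. After thinning each barcode to 1000 UMIs, 3.86% and 4.27% of members held a UMI of that list, against 3.19% and 3.45% of granule-low neutrophils and 19.6% and 27.4% of T cells. Cebpe, which encodes C/EBP epsilon, was at 24.05 and 23.7 CPM in the granule-high sums and 11.5 and 8.86 CPM in the granule-low sums, a log2 difference of 1.28 ± 0.38 (adjusted p = 0.056) that did not pass the threshold. The members are therefore called granule-high here: they held secondary granule transcripts and no UMI of Mpo or Elane, and dividing-cell transcripts had no common order, with members below granule-low neutrophils in the sums and above them after thinning.

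Values that bear on other sources of UMIs are given next. T cells held granule-gene UMIs at 17.3 and 34.01 CPM, not TMM-scaled, and 10.8% and 16.0% of T cells held at least 1, at median depths of 5854 and 5334 UMIs. Whether free RNA in droplets or doublets gave these UMIs was not tested. The highest count in a T cell was 3 in library 1 and 51 in library 2. Epithelial cells held granule-gene UMIs at 15.5 and 23.8 CPM, not TMM-scaled. At least 1 was found in 23.0% and 37.3% of them, at median depths of 17898 and 22672.5 UMIs. Their highest counts were 36 and 55, and 3 and 2 epithelial barcodes held at least 20, against 0 and 1 T cells. Doublet scores marked 2 (0.858%) and 14 (2.72%) members and 10 (5.13%) and 32 (7.69%) granule-low barcodes. The libraries shared 18 barcode sequences, of which 0 were members in both. Monocyte markers differed more: barcodes with at least 10 UMIs of Ccr2, F13a1, Vcan and Csf1r were 3 (1.29%) and 12 (2.33%) of members, 23 (11.8%) and 53 (12.7%) of granule-low barcodes and 73.5% and 70.3% of mononuclear phagocytes. In these marked granule-low barcodes Retnlg, Csf3r and Cxcr2 summed to 1262 and 2353 CPM (not TMM-scaled), against 26129 and 27186 in the unmarked ones. The granule-low class thus held a part with monocyte transcripts and few neutrophil transcripts. That part was larger by UMIs than by barcodes. Without the marked barcodes the granule-low sums went from 1080525 to 789773 UMIs in library 1 and from 2076959 to 1554566 in library 2. The member sums went from 2152078 to 2104061 and from 3847162 to 3665031 UMIs. The counts for each list below are given with all barcodes and, as an alternative chosen after seeing the data, without the marked barcodes of both classes. Values of single genes are with all barcodes unless said otherwise.

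Members were compared with granule-low neutrophils of the same libraries to see which genes outside the rule go with the granule transcripts. The split was made on these same cells, so the test describes what accompanies it. Of 7707 genes tested with edgeR's quasi-likelihood test, 1126 (14.6%) passed an adjusted p of 0.05, with 564 (7.32%) higher and 562 (7.29%) lower in the members. Without the monocyte-marked barcodes 396 of 7048 genes were called higher (5.62%) and 343 lower (4.87%), and 289 higher and 192 lower genes were called both times. In library 2 alone, where the lone neutrophil sums were assumed to vary like the other classes, 42 genes were higher and 37 lower, and in library 1 alone 98 and 180. Without TMM factors the calls were 246 higher and 1612 lower, and the median of all genes stood at -0.32 on the log2 scale in place of -0.01. A log2 difference in the text is granule-high minus granule-low, ± SE, on the TMM scale.

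The 12 genes chosen by size of difference on the higher side had mean levels of at most 28.9 CPM in phagocytes. The choice required at least 0.5 times the level of each other class, which limits levels elsewhere, and Serpinb1a stood at 870.4 CPM in epithelial cells. Itgb2l, a beta integrin chain related to Itgb2, stood at 266 and 239.7 CPM in the granule-high sums and 21.9 and 29.9 CPM in the granule-low sums and at 0.154 and 0.249 CPM in phagocytes. Its log2 difference was 3.25 ± 0.21 (adjusted p = 0.00025), and the groups did not overlap. Lack of overlap, here and below, does not set a gene apart by itself: 57.3% of all 7707 genes tested showed it. Cd177, a lipid-anchored surface glycoprotein of neutrophils, stood at 2359 and 1861 CPM in the granule-high sums and 404 and 530.2 CPM in the granule-low sums, a difference of 2.16 ± 0.28 (adjusted p = 0.0016). Every member library again stood above every granule-low library. Serpinb1a, an inhibitor of neutrophil serine proteases, was at 626 and 486 against 111 and 102 CPM and differed by 2.37 ± 0.19 (adjusted p = 0.00058). Syne1, which encodes the nuclear envelope protein nesprin-1, was at 618 and 583 against 149 and 128 CPM and differed by 2.12 ± 0.18 (adjusted p = 0.00058). All 12 genes of this side were called again without the monocyte-marked barcodes. The other 8, with log2 differences from 2.13 to 4.61, were Col5a1, Krt83, Orm1, Adpgk, Fmo5, Ly75, Ceacam10 and Abca13. Adpgk is an ADP-dependent glucokinase, Fmo5 a flavin monooxygenase, Ly75 an endocytic receptor, Ceacam10 a secreted member of the carcinoembryonic antigen family and Orm1 the acute-phase protein orosomucoid.

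Col5a1, a collagen chain usually made by fibroblasts, had the largest difference, 4.61 ± 0.98 (adjusted p = 0.014), at 82.3 and 39.3 against 2.31 and 2.77 CPM. Its UMIs were spread over 65 members of library 1 and 79 of library 2, with at most 5 in a barcode. Fibroblast markers summed to 13.5 and 113 CPM (not TMM-scaled) in the members, 14.8 and 55.9 in granule-low neutrophils and 19.4 and 217 in phagocytes, whose Col5a1 level was 0.771 and 6.43 CPM. With library 1 left out Col5a1 differed by 3.800 (adjusted p = 0.1) and with library 2 left out by 5.08 (0.053). Itgb2l, Krt83, Serpinb1a, Adpgk, Fmo5, Abca13 and Syne1 passed the threshold in either library alone. Ly75 passed in neither (adjusted p = 0.086 and 0.099). When library 1 was left out, Orm1, Cd177 and Ceacam10 had adjusted p values of 0.065, 0.078 and 0.053.

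The specific granule list also holds genes whose proteins are not granule contents, among them Stfa1, Stfa2, Stfa3 and Ltb4r1. Its calls outside the rule were mostly on the higher side. Of 22 tested, 15 were higher and 1 lower, with a median log2 difference of 1.33 against -0.01 over all genes, and without the marked barcodes 14 of 21 were higher and 0 lower (median 1.39), with 12 genes called higher both times. Beside the genes named so far, Olfm4, a secreted glycoprotein of a neutrophil subset, was at 180.0 and 237 CPM in the granule-high sums and 48.4 and 54.8 CPM in the granule-low sums and differed by 2.03 ± 0.20 (adjusted p = 0.00083). Pglyrp1, a peptidoglycan-binding antibacterial protein, was at 4123 and 3468 against 1369.9 and 1485 CPM and differed by 1.41 ± 0.14 (adjusted p = 0.00083). Anxa1, an anti-inflammatory phospholipid-binding protein, was at 4994 and 4242 against 1546 and 1429.6 CPM and differed by 1.64 ± 0.35 (adjusted p = 0.015). In each of these the lower member library lay above the higher granule-low library. With library 1 left out 5 genes of the list were called higher and with library 2 left out 10. Stfa1, Stfa2 and Stfa3, a cluster of closely similar stefin genes whose counts may be split unevenly, were higher by 1.16 ± 0.25, adjusted p = 0.016, by 1.44 ± 0.39, adjusted p = 0.037, and by 1.24 ± 0.21, adjusted p = 0.0057. Stfa3 alone of them was called without the marked barcodes (0.75, adjusted p = 0.049), with Stfa1 at 0.62 (0.15) and Stfa2 at 0.92 (0.15).

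Abundant specific granule genes were less clear. Lcn2, which encodes the iron-siderophore trap lipocalin 2, stood at 22533 and 17552 CPM in the granule-high sums and 6129 and 6961 CPM in the granule-low sums without overlap, but its difference of 1.68 ± 0.70 (adjusted p = 0.14) did not pass the threshold. It did pass with doublet-scored barcodes removed (1.62, adjusted p = 0.003). It also passed in a fit of the 4 neutrophil sums alone (1.604, adjusted p = 9.3e-05), which left only 1 residual degree of freedom. Mmp8, neutrophil collagenase, stood at 6034 and 5784 CPM in the granule-high sums and 2714 and 3268 CPM in the granule-low sums and also missed the threshold (1.01 ± 0.45, adjusted p = 0.17). For both genes the members were the higher class in each library. Chil3, a chitinase-like protein that monocytes make too, turned with the monocyte-marked barcodes: it was at 4615 and 2417 CPM in the granule-high sums and 4195 and 4277 CPM in the granule-low sums with all barcodes, a difference of -0.17 ± 0.62 (adjusted p = 0.9). Without them it was at 4287 and 2336 against 487 and 472 CPM, a difference of 2.89 ± 0.68 (adjusted p = 0.028). Cybb, the NADPH oxidase subunit gp91phox, which phagocytes carried at 829.6 and 1203 CPM, went from 0.84 ± 0.34 (adjusted p = 0.12) to 2.03 ± 0.38 (adjusted p = 0.011). Fcnb, a ficolin of myeloid cells, was scarce at 6.56 and 2.91 against 14.99 and 16.6 CPM and had a difference of -1.93 ± 0.50 (adjusted p = 0.04), a call not made without the marked barcodes.

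**Figure D2:**
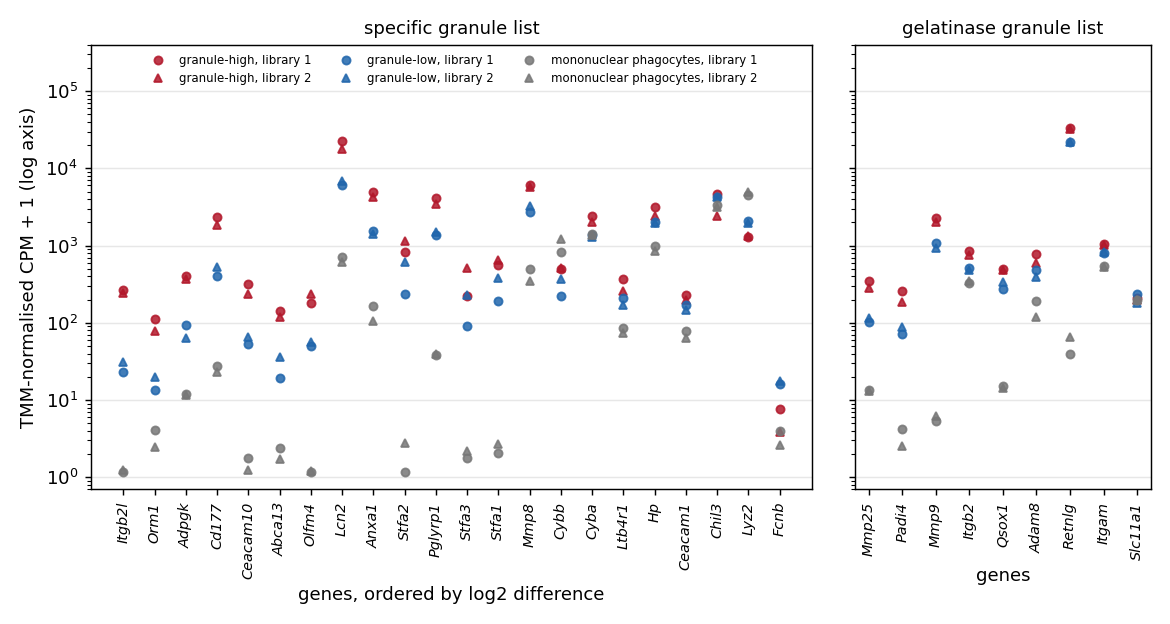
TMM-normalised CPM plus 1 (log axis) of the tested genes of the specific and gelatinase granule lists, ordered by log2 difference, in granule-high neutrophils (red), granule-low neutrophils (blue) and mononuclear phagocytes (grey), with library 1 as circles and library 2 as triangles. Red points lie above blue ones for Itgb2l, Cd177 and Lcn2, and phagocyte points lie at or above them for Chil3, Lyz2 and Cybb in at least 1 library.

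The primary and gelatinase granule lists gave smaller counts. They also hold genes whose proteins are not granule contents, among them Serpinb1a and Padi4. Of 12 primary granule genes only 6 could be tested, of which 2 were higher (Serpinb1a, and Cd63 at 246 and 240.4 against 108 and 102 CPM, a tetraspanin of granule membranes) and 1 lower. Serpinb1a kept the call without the marked barcodes and Cd63 went from 1.21 ± 0.36 (adjusted p = 0.048) to 0.78 ± 0.36 (adjusted p = 0.2). The lower gene was Ctsc, the protease that activates granule serine proteases, at 133 and 182 against 302 and 308 CPM and -0.96 ± 0.16 (adjusted p = 0.0053), and without the marked barcodes it turned to 0.70 ± 0.21 (adjusted p = 0.057). The list's median was -0.43, and 0.61 without the marked barcodes, and without TMM factors 1 gene was higher and 2 lower. Of 9 genes of the gelatinase granule list tested 5 were higher and 0 lower (median 0.66, with 0 lower also at an unadjusted p under 0.05 and by DESeq2). Mmp25, a membrane-anchored matrix metalloproteinase, was at 343 and 283 CPM in the granule-high sums and 101 and 116 CPM in the granule-low sums and differed by 1.51 ± 0.15 (adjusted p = 0.00083), a call also made in either library alone. Padi4, the enzyme that citrullinates histones in neutrophil extracellular traps, was at 255 and 183 against 70.3 and 86.9 CPM and differed by 1.42 ± 0.25 (adjusted p = 0.0087). Mmp9, which encodes gelatinase B, was at 2292 and 2045 against 1083 and 921 CPM and differed by 1.11 ± 0.24 (adjusted p = 0.016), but by 0.60 ± 0.25 (adjusted p = 0.16) without the marked barcodes, when Mmp25 and Padi4 alone of this list were called. With either library left out 1 gene of the list was called.

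Genes of microbial killing, glycolysis and lipid mediators were mixed. Of 21 genes of the oxidase and killing list, 6 were higher and 2 lower (median 0.36), and without TMM factors 2 were higher and 4 lower (median 0.04). Ifitm6, an interferon-induced transmembrane family member of myeloid cells, was at 10628 and 9286 CPM in the granule-high sums and 2561 and 3005 CPM in the granule-low sums and differed by 1.87 ± 0.29 (adjusted p = 0.0036). Ncf4, a cytosolic oxidase subunit, was at 442 and 413 against 286 and 256 CPM and differed by 0.66 ± 0.14 (adjusted p = 0.015). The lower genes were S100a4 and Ctsb. Without the marked barcodes 4 calls held on the higher side and 1 on the lower side. Of 22 glycolysis and hypoxia genes, 7 were higher and 2 lower (median 0.24), but without TMM factors 3 were higher and 5 lower (median -0.07). Without the marked barcodes 4 were higher and 1 lower. Ldha, lactate dehydrogenase A, was at 870.1 and 751 against 394 and 419.5 CPM (0.99 ± 0.14, adjusted p = 0.002) and Hilpda, a hypoxia-induced lipid droplet protein, at 304 and 299.8 against 158 and 157 CPM (0.94 ± 0.14, adjusted p = 0.0033). Of 9 eicosanoid genes 2 were higher and 1 lower, and without the marked barcodes Lta4h alone was called. Lta4h, which makes leukotriene B4, was at 83.8 and 66.7 against 33.4 and 30.4 CPM (1.21 ± 0.16, adjusted p = 0.0017), and Ltb4r1, the receptor of that lipid from the specific granule list, was at 366 and 259 against 206 and 169.9 CPM (0.72 ± 0.17, adjusted p = 0.021). In library 2 alone 1, 0 and 0 genes of these 3 lists were called, and in library 1 alone 4, 1 and 0.

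All calls among cytokine and chemokine genes were on the lower side. Of 23 tested, 11 were lower and 0 higher (0 also at an unadjusted p under 0.05 and by DESeq2), a median of -1.38, and without the marked barcodes 7 were lower, all among the 11 (median -1.12). Il1rn, the interleukin-1 receptor antagonist, was at 109 and 201 CPM in the granule-high sums and 412 and 469 CPM in the granule-low sums and differed by -1.53 ± 0.28 (adjusted p = 0.0078). Ccl4, an inflammatory chemokine, was at 243 and 384 against 1176 and 878 CPM and differed by -1.72 ± 0.33 (adjusted p = 0.0098). Ccl6, a chemokine of myeloid cells, was at 446 and 409 against 1874 and 1223 CPM and differed by -1.84 ± 0.46 (adjusted p = 0.027). All 3 kept the call without the marked barcodes, as did Ccl3 and Ptgs2, the inducible cyclooxygenase at 128 and 149 against 627 and 513 CPM. Saa3, an acute-phase protein, did not: it went from -3.05 ± 0.70 (adjusted p = 0.02) to -1.198 ± 0.60 (adjusted p = 0.23). Il1b, which codes for interleukin-1 beta, was at 2881 and 2937 CPM in the granule-high sums and 10292 and 8163 CPM in the granule-low sums. These did not overlap, but the Il1b difference was -1.704 ± 0.58 (adjusted p = 0.082) and passed only in some fits. Among them was the fit of the 4 neutrophil sums alone (adjusted p = 4.9e-05), with only 1 residual degree of freedom. Cxcl2, a chemokine for neutrophils, differed little for its spread (13246 and 11344 against 20084 and 13659 CPM, -0.48 ± 0.64, adjusted p = 0.67). In library 2 alone 0 genes of the list were called, and in library 1 alone 3.

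Homing and receptor genes with a call were mostly on the lower side. The Cxcr2 levels given above differed less between the classes than those of the genes named here. Of 24 homing and receptor genes 6 were lower and 1 higher (median -0.29), and without the marked barcodes 8 were lower, including these 6 (median -0.62). Clec7a, the beta-glucan receptor dectin-1, was at 18.9 and 51.7 CPM in the granule-high sums and 423 and 258 CPM in the granule-low sums and 449 and 464 CPM in phagocytes, a difference of -3.26 ± 0.47 (adjusted p = 0.0025), and -3.98 ± 0.54 (adjusted p = 0.0038) without the marked barcodes. Cxcr4, the receptor that returns aged neutrophils to the marrow, was at 16.8 and 21.1 against 57.7 and 40.96 CPM and differed by -1.29 ± 0.38 (adjusted p = 0.046), a call lost with 10 or 40 UMIs as the limit (adjusted p = 0.075 and 0.073). Cxcr1 was at 3.64 and 2.55 against 20.8 and 16.6 CPM and differed by -2.62 ± 0.58 (adjusted p = 0.019). Csf3r, the receptor for granulocyte colony-stimulating factor, was at 343 and 323 CPM in the granule-high sums and 890.2 and 647 CPM in the granule-low sums. Its difference moved from -1.22 ± 0.38 (adjusted p = 0.061) to -1.71 ± 0.39 (adjusted p = 0.026) without the marked barcodes. S1pr4, a sphingosine phosphate receptor, was the higher one, at 63.4 and 56.5 against 12.7 and 18.3 CPM (1.900 ± 0.23, adjusted p = 0.0013), and was called in either library alone. Library 2 alone gave 0 lower calls in the list, and library 1 alone 3.

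Stress, interferon and transcription factor genes with a call were mostly lower too. Of 24 NF-kB and stress response genes 8 were lower and 0 higher (median -0.47), and without the marked barcodes 10 and 0. Gadd45b, a stress-induced regulator of kinase signalling, was at 54.7 and 66.3 CPM in the granule-high sums and 389 and 190.4 CPM in the granule-low sums and differed by -2.16 ± 0.27 (adjusted p = 0.0014), also in either library alone. Socs3, a feedback inhibitor of cytokine signalling, was at 277 and 373 against 808 and 661 CPM (-1.16 ± 0.18, adjusted p = 0.0033). Of 22 interferon-stimulated genes 7 were lower and 1 higher (median -1.19), and without the marked barcodes 11 were lower and 0 higher (median -1.55). Of 18 transcription factor genes of granulopoiesis 3 were lower (Runx1, Atf3 and Nfil3) and Lmo4 was higher. These 4 kept the call without the marked barcodes, when Cebpd and Junb were lower too, and without TMM factors 6 were lower and 0 higher. Runx1, a transcription factor of blood cell formation, was at 30.6 and 40.1 against 100.3 and 107 CPM (-1.52 ± 0.17, adjusted p = 0.001). Of 16 genes linked to aged or tissue neutrophils 6 were lower and 0 higher (median -0.66), and 4 of 14 were lower without the marked barcodes. The 6 included Cd274, the checkpoint ligand PD-L1, at 37.9 and 85.2 against 191 and 199 CPM (-1.62 ± 0.27, adjusted p = 0.0054) and Icam1, an adhesion molecule, at 18.2 and 50.3 against 83.02 and 116 CPM (-1.49 ± 0.29, adjusted p = 0.01). In the aged-neutrophil and NF-kB lists 0 genes were higher also at an unadjusted p under 0.05 and by DESeq2. Library 2 alone called 1 NF-kB gene, 0 interferon genes, 0 aged-neutrophil genes and 1 transcription factor gene lower, and library 1 alone 5, 8, 4 and 2.

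Remaining lists showed few calls. Among 20 survival and death genes Bax, which promotes apoptosis, was lower at 16.03 and 24.8 against 42.7 and 58.1 CPM and was not called without the marked barcodes, when Bcl2a1b and Birc3 were lower. Mcl1, a survival factor on which neutrophils depend, was at 2676 and 2263 CPM in the granule-high sums and 2489.6 and 2218 CPM in the granule-low sums and differed by 0.07 ± 0.12 (adjusted p = 0.77). Of 14 cell cycle genes 1 was higher and 1 lower (Ptma), and the lower call was not made without the marked barcodes. Hmgn2, a nucleosome-binding protein, was the higher one at 471 and 452 against 161 and 177 CPM (1.45 ± 0.22, adjusted p = 0.0034), and Mki67 differed by 0.04 ± 0.47 (adjusted p = 0.98). Of 15 secretory vesicle and surface genes 2 were higher and 1 lower, and the same 3 genes were called without the marked barcodes. Cd24a, a lipid-anchored surface glycoprotein, was at 660.2 and 604 CPM in the granule-high sums and 279 and 299 CPM in the granule-low sums and differed by 1.12 ± 0.15 (adjusted p = 0.0017). Ly6g, the usual surface marker of mouse neutrophils, did not pass at 466 and 527 against 394 and 384 CPM (0.35 ± 0.13, adjusted p = 0.1), and without the marked barcodes its difference was -0.14 ± 0.14 (adjusted p = 0.57). Without TMM factors 7, 3 and 2 genes of these 3 lists were lower. Library 2 alone gave no call in these 3 lists, and library 1 alone 0, 1 and 2.

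**Figure D3:**
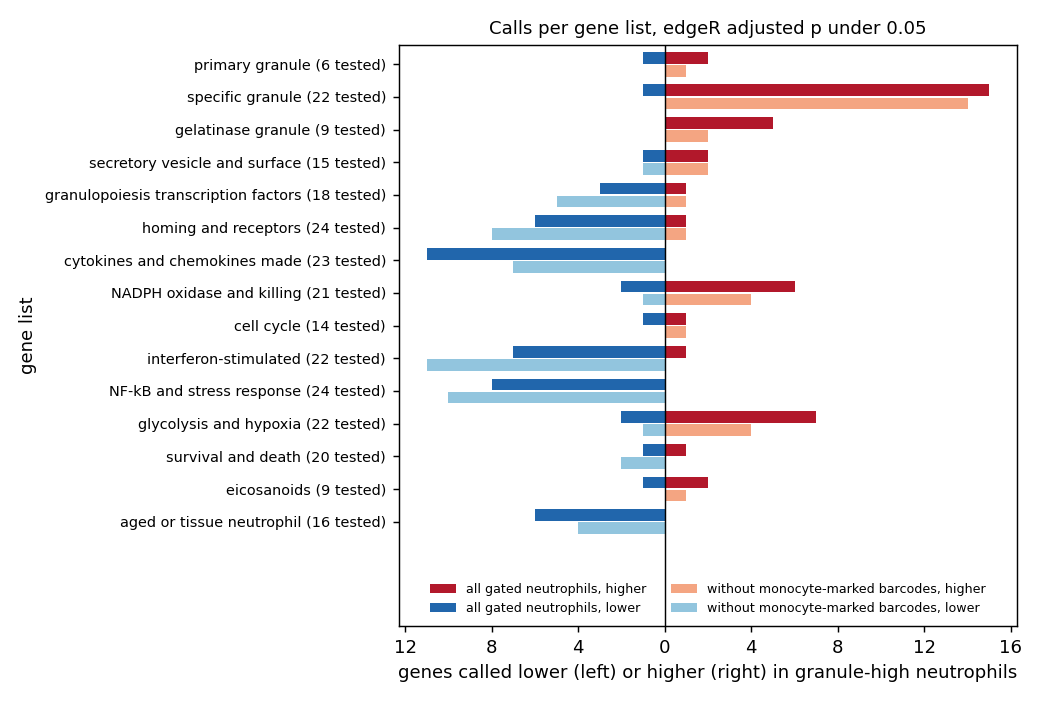
Number of genes called lower (left) or higher (right) in granule-high neutrophils in each list (horizontal axis), with all gated neutrophils (dark bars) and without monocyte-marked barcodes (light bars), at an edgeR adjusted p under 0.05. The specific granule list has 15 and 14 genes called higher, and the cytokine and chemokine list has 11 and 7 called lower.

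The genes with the largest differences on the lower side were mostly monocyte genes. Fn1 (fibronectin) was at 12.4 and 22.2 CPM in the granule-high sums and 556 and 419 CPM in the granule-low sums and 633 and 543 CPM in phagocytes, and Vcan, a matrix proteoglycan of monocytes, at 18.2 and 18.9 against 344 and 315 CPM. Without the marked barcodes, which Vcan itself helped to mark, Fn1 stood at 2.88 and 10.7 against 17.1 and 8.63 CPM and Vcan at 0.721 and 9.58 against 11.96 and 7.85 CPM, and neither was called (adjusted p = 0.76 and 0.75). S100a4, F10, Ccl9 and Cd93 lost the call too, with log2 differences from -1.57 to -0.73, and Ccl2 and Dmkn could then no longer be tested. The 4 that stayed were Ccl21a, Clec7a, Sirpb1b and Sirpb1c. Ccl21a is a chemokine of lymphatic vessels, and 56 of its 62 UMIs in library 1 and 141 of 145 in library 2 came from 1 granule-low barcode each. With a limit of 10 granule-gene UMIs its difference went from -5.12 to 0.029. In library 2 alone Fn1, Vcan, Sirpb1b and Sirpb1c kept the call and the other 8 had adjusted p values from 0.053 to 0.12. In library 1 alone Ccl21a and Dmkn lost it (adjusted p = 0.1 for both).

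Levels also differed within the granule-high class. Members of each library were ordered by the share of their UMIs from Ngp, Ltf and Camp and cut into terciles, and levels here are CPM computed without the genes of the rule. Median UMI depth went from 8358 to 10145 in library 1 and from 6519 to 7827 in library 2 between the lowest and highest tercile. Chil3 was at 2792, 4580.5 and 6054 from the lowest to the highest tercile of library 1 and at 1346, 2149 and 3998 in library 2. Cybb was at 240.1, 371 and 831 and at 341, 414 and 828. Both were over 2 times as high in the highest tercile of either library, while neither passed the test between the classes with all barcodes. Lcn2 was at 16324, 20999.7 and 28304 and at 13640.1, 17393 and 23440.3. Itgb2l was at 142, 252 and 377 and at 149, 222 and 372, and Serpinb1a at 369, 556 and 889 and at 317, 465 and 726. All of these were higher at each step.

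Other genes were lower where the granule share was higher. Il1b was at 3994, 3122 and 1462 in library 1 and at 4300.5, 3224 and 1581 in library 2. Ccl6 was at 770.5, 364 and 194 and at 601, 448 and 220.1. Csf3r was at 423, 333 and 256 and at 414, 351 and 239, and Retnlg at 38185, 33674 and 26589 and at 38495, 34434 and 26041. The lowest tercile was the highest in both libraries for each of these. Olfm4 had no common order (192, 212 and 129 and 217, 106 and 405). Of the 564 genes higher in the members, 405 (71.8%) were higher in the highest than in the lowest tercile in both libraries, against 27.7% of all genes tested. Of the 562 lower genes, 327 (58.2%) were higher in the lowest tercile in both libraries, against 30.7% of all genes. These are descriptions without a test, since the terciles were cut on the genes of the rule in the same barcodes.

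**Figure D4:**
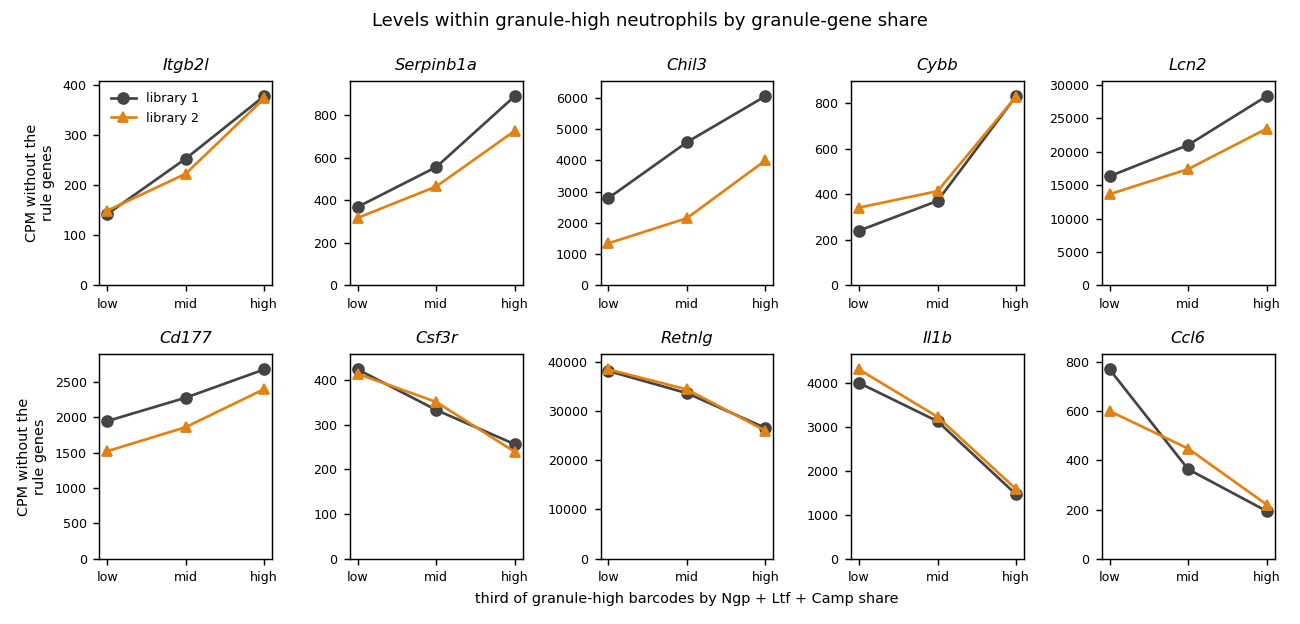
CPM computed without the genes of the rule (vertical axes, starting at 0) of 10 genes in the lowest, middle and highest tercile of granule-high barcodes by Ngp, Ltf and Camp share, in library 1 (grey circles) and library 2 (orange triangles). Itgb2l, Serpinb1a, Chil3, Cybb, Lcn2 and Cd177 are higher and Csf3r, Retnlg, Il1b and Ccl6 lower at each step in both libraries.

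Between the libraries, the members differed most in interferon-stimulated genes among the 15 lists. The median log2 ratio of library 2 to library 1 (CPM plus 1, genes at 10 CPM or more) over the 22 genes of that list was 1.94 in the members, against -0.03 over all genes, and 15 of the 22 were at 1 or more. It was 0.58 in granule-low neutrophils and 0.77 in phagocytes. Without the marked barcodes it was 1.56 in the members and 0.24 in granule-low neutrophils. Irf1, an interferon-induced transcription factor, was at 201 and 927 CPM in the members and at 932 and 1039 CPM in granule-low neutrophils. Gbp2, a guanylate-binding protein, was at 39.4 and 238 and at 488 and 692 CPM, and Isg15, a ubiquitin-like modifier, at 40.8 and 153 and at 377 and 382 CPM. Cxcl10, an interferon-induced chemokine, was at 29.1 and 866 and at 679 and 1361 CPM. In each the members of library 1 stood lowest of the 4 sums. Of the interferon list 8 genes were called lower against granule-low neutrophils in library 1 alone and 0 in library 2 alone.

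Some transcripts of other classes also differed between the libraries. Endothelial markers summed to 37.2 CPM (not TMM-scaled) in the members of library 1 and 7.54 in those of library 2, while macrophage and class II transcripts were higher in library 2. Macrophage markers summed to 119 and 288 CPM (not TMM-scaled) in the members and 422 and 512 in granule-low neutrophils, against 9949 and 9828 in phagocytes. The class II gene H2-Aa was at 70.7 and 238 CPM in the members and at 231 and 224 CPM in granule-low neutrophils, and Cd74, the class II invariant chain, at 174 and 541 and at 547 and 514 CPM. With 1 library on each side the difference between libraries could not be tested, and the part of these transcripts in it was not tested. Genes of the specific granule list moved little by comparison, with a median log2 ratio of -0.24 in the members.

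**Figure D5:**
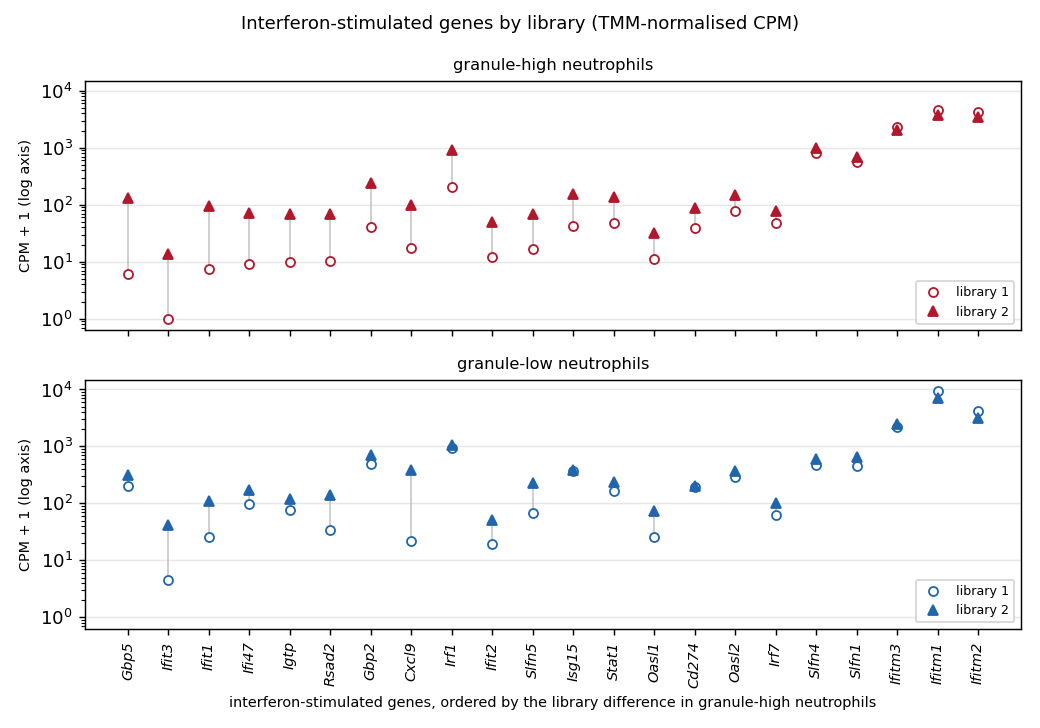
TMM-normalised CPM plus 1 (log axis) of 22 interferon-stimulated genes in granule-high (upper panel, red) and granule-low (lower panel, blue) neutrophils, with library 1 as open circles, library 2 as filled triangles and a grey line joining them. In granule-high neutrophils Gbp5 is at 5.101 and 131 CPM and Irf1 at 201 and 927 CPM in library 1 and library 2.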

How the data were processed

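The authors deposited UMI counts per gene and barcode, made with Cell Ranger. Per the file headers its version was 7.0.0, while the submitters' processing notes name 8.0.0 and the build mm10. Per the labels' protocols, 5000 cells were targeted per library, and a 3' V3 capture kit and 3' v2 library reagents are both named. The files held 16208 barcodes (6597 and 9611) with 76622643 and 94204110 UMIs. The other classes, used to share the estimate of spread, were gated on raw counts of their markers. Counts were summed into 6 classes by 2 libraries (12 sums, 5 residual degrees of freedom) and fitted in edgeR 4.0.16 (R 4.3.3) with TMM, filterByExpr on the 4 neutrophil sums, library as a block, glmQLFTest and Benjamini-Hochberg adjustment over 7707 genes, with a threshold of 0.05. Genes of the rule stayed in the fit untested. The SE is the difference over the root of its F. On data simulated from these sums, 100% of genes changed 4-fold and 31% of those changed 2-fold were recovered, and 4.38% of calls were false. The simulation gave every gene the same spread and both libraries the same proportions. These rates therefore need not hold for the real sums. Doublets were scored with Scrublet in scanpy 1.11.5 and removed only in an alternative; another used DESeq2 1.42.0. Intervals are exact binomial.

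Gene coordinates are from GENCODE M21 (52081 of 55357 IDs matched) and promoters from RefSeq (GRCm38.p6). All genes of 15 lists could be named (263 of 303 passed the filter), and 12 genes a side were named by size of log2 difference among those called, alike in both libraries, at 50 CPM or more in the higher class and at least 0.5 times the level of each other class. The members and lists were chosen with earlier results of these data known. Genes in the tercile plot, and the alternatives without monocyte-marked barcodes, without phagocyte-gene UMIs and without TMM factors, were chosen after seeing the data. A call in the survival list is not reported here.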

Additional observations from a re-analysis of the deposited data

How the results depend on the processing

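The counts of genes higher and lower (564 and 562) stayed within 1.5 times under DESeq2, other size factors, no replicate block (496 and 457), the 4 neutrophil sums alone, no filter on low counts, other granule limits, doublet removal and stricter barcode filters. They moved to 88 and 69 with barcodes thinned to 1000 UMIs (3187 genes tested), to 246 and 1612 without TMM factors, to 256 and 186 among barcodes without phagocyte-gene UMIs, and the lower count moved to 343 without monocyte-marked barcodes. Leaving out a library gave 42 to 98 higher and 37 to 180 lower genes. The share of gated neutrophils that were granule-high (54.9%) was 61.5% at a limit of 10 UMIs, 46.0% at 40, 49.5% at a share of 0.5%, 50.8% after thinning, 56.1% without doublets, 55.9% with at least 500 genes, 57.6% without monocyte-marked barcodes and 53.1% without phagocyte-gene UMIs.

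Of 106 named or listed genes called, 105 kept the call with the 4 neutrophil sums alone, 101 with DESeq2, 87 with no replicate block, 71 of 101 without monocyte-marked barcodes, 41 of 95 after thinning, 49 with library 1 alone and 17 with library 2 alone. Among genes called in either fit of a pair, signs turned for Ccl21a (0.029 at 10 UMIs), Chil3 (2.89 without monocyte-marked barcodes, 3.01 without phagocyte-gene UMIs), Ctsc (0.70 and 0.84), Hspa1a (-2.21 at 40 UMIs, -2.05 at a share of 0.5%) and Tgfb1 (0.14 without phagocyte-gene UMIs); the cause was not tested. Signs also differed for genes called in neither fit, 29 of the 268 genes tested without monocyte-marked barcodes (among them Ly6g and Prtn3), 30 of 254 without phagocyte-gene UMIs, 28 of 276 without TMM factors and 0 to 21 under each of the other settings. Depth limits Mpo, Elane, Ms4a3, Ctsg and Prss57, which were too scarce to test.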

Other observations

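Ribosomal protein genes, looked at after their values were seen, changed sides with the monocyte-marked barcodes. With all barcodes 30 of 80 were lower in granule-high neutrophils and 0 higher, with a median log2 difference of -0.30. Without the marked barcodes 0 were lower and 23 higher, with a median of 0.43. The direction of this family thus differed with and without those barcodes.

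The Sirpb1 genes, paired immune receptors in a cluster on chromosome 3, were lower in both forms of the comparison (3 of 3, median log2 difference -2.76 and, without the marked barcodes, -2.88). Sirpb1b was at 10.9 and 13.8 against 70.3 and 76.9 CPM and Sirpb1c at 9.47 and 13.8 against 105 and 80.3 CPM, given for granule-high and then granule-low neutrophils of library 1 and library 2. The copies are alike, so their counts may be split unevenly. Of 7 tested Ifi200 genes, interferon-induced DNA sensors on chromosome 1, 5 were lower and 0 higher (median -2.13), and 2 of the 4 that could still be tested were lower without the marked barcodes. Ifi204 was at 10.9 and 63.4 CPM in granule-high and 138 and 288 CPM in granule-low neutrophils.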
